A study of Mus musculus with 12 samples.

Results

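The synaptonemal complex and axis genes were followed as a set of 9 genes, Sycp1, Syce1, Syce2, Syce3, Tex12, Sycp2, Sycp3, Hormad1 and Hormad2, chosen by name and matched to the gene symbols of the deposited tables. All 9 were found in both tables, which list 55385 gene models for PRC2 and 55401 for PRC1. All 9 also had at least 1 TPM in at least 2 libraries of each table, the filter for testing. The values are TPM (transcripts per 1000000), an abundance per transcript length that is scaled to sum to 1000000 in each library.

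The synaptonemal complex is the protein ladder that joins homologous chromosomes along their length during meiotic prophase. Its rails, the lateral elements, form on the chromosome axes, transverse filaments span the gap between them, and central element proteins hold the filaments together in the middle. HORMA-domain proteins mark axes that have not yet paired. In mouse females this happens in the fetal ovary, and the complex is taken apart as oocytes arrest around birth, so that the oocytes sampled here are past the stage at which these genes are used for synapsis.

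The study asked how loss of Polycomb repressive complexes changes gene expression in mouse oocytes, in 12 RNA-seq libraries, 2 for each of 6 groups. PRC2 cKO oocytes carried Eed F/- with Ddx4-Cre and their controls Eed F/+ with Ddx4-Cre, and both genotypes were sampled as growing oocytes at postnatal day 7 (P7) and as non-growing oocytes at postnatal day 6 (P6). The PRC1 libraries were growing oocytes at P7. Their control is labelled Ring1-/-; Rnf2 F/+; Ddx4-Cre, and the knockout, called PRC1 cKO here, is labelled Ring1-/-; Ring1 F/-; Ddx4-Cre, which repeats Ring1 where Rnf2 may have been meant. All 4 PRC1 libraries thus lack Ring1, and the PRC1 control is not a wild type. Ddx4-Cre recombines in germ cells, so that the floxed allele is lost in oocytes and not in the cells around them. The alleles written as - are not limited to germ cells. By these labels the cells around all PRC1 oocytes also lack Ring1, and those around PRC2 cKO oocytes carry an Eed null allele that the controls do not. The PRC2 control, with a floxed Eed allele and Ddx4-Cre, is not a wild type either. Growing and non-growing oocytes also differ by a day of age, which cannot be told apart from growth. Whether the replicates were separate animals is not labelled, so p-values measure only the spread between these libraries, which may be technical.

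Eed, the PRC2 subunit deleted, was at 9.64 and 10.1 TPM in PRC2 cKO growing oocytes, against 62.3 and 60.5 TPM in control growing oocytes. The non-growing values were 12.1 and 10.3 TPM with PRC2 cKO, against 88.9 and 90.5 TPM in control. Ring1 was at 0.01 and 0.02 TPM in PRC1 cKO and at 0 in both PRC1 control libraries. Rnf2 was at 87.8 and 61.4 TPM in PRC1 cKO, against 59.2 and 53.8 TPM in PRC1 control (log2 fold change 0.37, SE 0.21, limma adjusted p = 0.197), and a total per gene does not check a floxed exon. The 12 oocyte markers summed to 14264 to 20147 TPM in growing libraries and 5751 to 8039 TPM in non-growing ones. The 9 granulosa cell markers summed to 20.6 to 32.4 TPM in PRC1 cKO, against 3.35 to 5.86 TPM in PRC1 control, and to 3.09 to 6.33 TPM over the PRC2 libraries. Models of class TEC, predicted transcripts awaiting experimental evidence, took 23.3 to 25.9% of TPM in PRC2 growing libraries, against 2.26 to 2.58% in non-growing ones, and 11.1 to 14.9% in PRC1 cKO, against 20.9 to 22.5% in PRC1 control. Because TPM has a fixed sum, such shares bear on all other genes' values.

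By role, the transverse filament protein is encoded by Sycp1 (ENSMUSG00000027855, chr3:102818499-102936100, minus strand, GRCm38). The central element proteins come from Syce1 (ENSMUSG00000025480, chr7:140777229-140787852, minus), Syce2 (ENSMUSG00000003824, chr8:84872111-84888221, plus), Syce3 (ENSMUSG00000078938, chr15:89390174-89410503, minus) and Tex12 (ENSMUSG00000032065, chr9:50556819-50561325, minus). The lateral element proteins come from Sycp2 (ENSMUSG00000060445, chr2:178345293-178407685, minus) and Sycp3 (ENSMUSG00000020059, chr10:88459569-88473236, plus). Hormad1 (ENSMUSG00000028109, chr3:95559677-95587671, plus) and Hormad2 (ENSMUSG00000020419, chr11:4345814-4441105, minus) encode the axis proteins that recruit the machinery watching for unpaired chromosomes. All are protein-coding genes.

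The promoters of the members are shown as a description of their sequence. RefSeq start sites on GRCm38.p6 gave 12 windows for the 9 members, each from 250 bases before to 50 bases after a start, and both strands were searched for 3 exact motifs. The E-box CACGTG is bound by MGA with MAX and TTCCCGC by E2F6, the DNA-binding proteins of a germline-gene form of PRC1, and CNCCTCAG is the motif of the meiotic activators STRA8 and MEIOSIN. CACGTG was found for 5 of 9 members, against 8.09% of 27025 genes with a window. TTCCCGC was found for 4 members, against 5.29% of genes, and CNCCTCAG for 4, against 9.12%. Hormad1 and Sycp3 each held a pair of E-boxes and a TTCCCGC match. Tex12 held all 3 motifs, and Sycp1 an E-box and, 33 bases after its start, a CNCCTCAG match. In Syce2 all 3 were found within its second window, inside the annotated gene, with the CNCCTCAG and TTCCCGC matches overlapping. Hormad2 held CNCCTCAG alone. None of the 3 was found in the windows of Sycp2, Syce1 or Syce3. A match describes these letters in these windows and is not a bound site. Members with and without a match were among those called below, and a link between matches and calls was not tested. The stretches below run from 200 bases before the start to the base before the start or the first annotated exon, 5′ to 3′, with matches in capitals (GCGGGAA is TTCCCGC on the other strand), and the CNCCTCAG matches of Tex12 and Sycp1 lie beyond their ends. The first 4 are members with E-boxes upstream of the annotated exons, and the last 2 are members with no match.
Hormad1 (chr3:95559477-95559676, plus strand): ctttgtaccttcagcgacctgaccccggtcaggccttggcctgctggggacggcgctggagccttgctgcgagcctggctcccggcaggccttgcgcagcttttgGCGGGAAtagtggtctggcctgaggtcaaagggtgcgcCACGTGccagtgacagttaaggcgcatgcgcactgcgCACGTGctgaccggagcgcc
Sycp3 (chr10:88459387-88459568, plus strand): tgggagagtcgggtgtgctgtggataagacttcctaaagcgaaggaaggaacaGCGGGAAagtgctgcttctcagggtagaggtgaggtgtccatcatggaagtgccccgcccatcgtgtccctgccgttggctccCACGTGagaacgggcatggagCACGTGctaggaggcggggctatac
Tex12 (chr9:50561326-50561468, minus strand): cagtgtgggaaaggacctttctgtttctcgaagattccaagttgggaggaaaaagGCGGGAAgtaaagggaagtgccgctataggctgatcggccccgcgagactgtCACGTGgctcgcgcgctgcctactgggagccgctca
Sycp1 (chr3:102936101-102936300, minus strand): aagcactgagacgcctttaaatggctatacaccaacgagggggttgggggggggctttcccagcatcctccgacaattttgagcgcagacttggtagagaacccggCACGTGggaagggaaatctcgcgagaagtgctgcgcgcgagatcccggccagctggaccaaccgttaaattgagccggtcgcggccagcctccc
Syce1 (chr7:140787855-140788054, minus strand): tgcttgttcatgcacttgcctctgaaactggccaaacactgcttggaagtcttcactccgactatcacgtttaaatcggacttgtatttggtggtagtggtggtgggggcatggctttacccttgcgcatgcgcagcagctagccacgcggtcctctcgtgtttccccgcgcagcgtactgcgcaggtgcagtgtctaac
Syce3 (chr15:89410504-89410703, minus strand): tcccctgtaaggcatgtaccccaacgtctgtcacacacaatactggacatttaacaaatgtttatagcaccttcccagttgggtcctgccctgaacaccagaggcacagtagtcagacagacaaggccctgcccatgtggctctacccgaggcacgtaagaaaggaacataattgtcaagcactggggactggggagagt

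**Figure D1:**
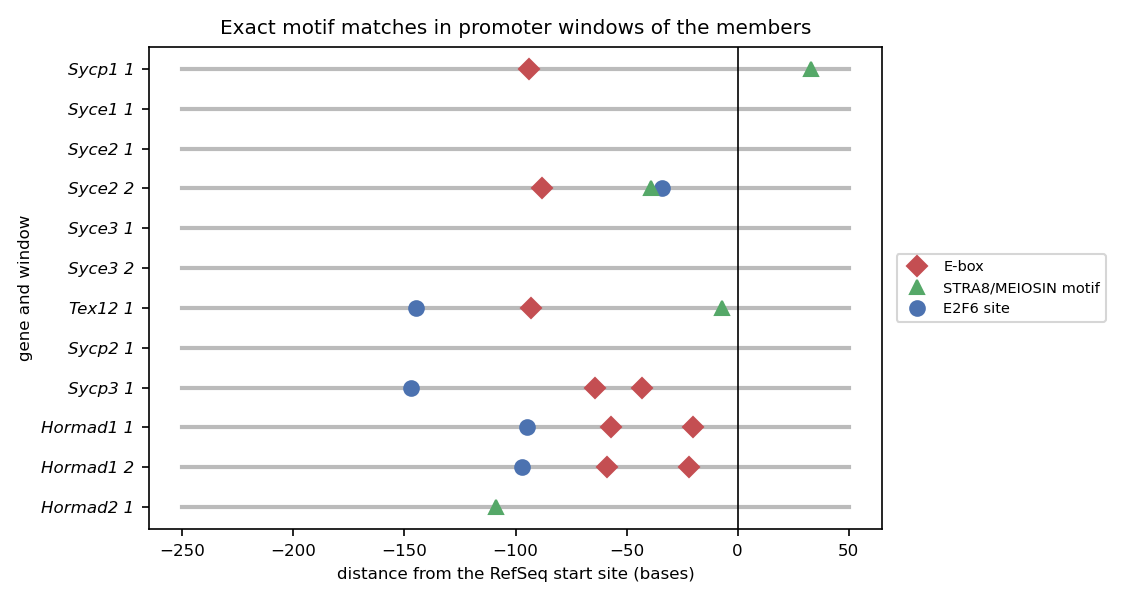
Exact matches of 3 motifs in the 12 RefSeq promoter windows of the 9 members (grey lines, x axis in bases from the start site, 1 row per gene and window). Symbols mark the first base of each match. E-boxes lie 94 to 20 bases before the start in 5 members, and the rows of Syce1, Syce3 and Sycp2 are empty.

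In the plot of levels by library, Sycp3 stood far above the other members in non-growing oocytes, with 4127 and 4024 TPM in the PRC2 cKO and 3392 and 3364 TPM in the control. It made up 71.1 to 71.5% of the members' summed TPM in control non-growing libraries. Syce1 followed in PRC2 cKO non-growing oocytes at 596 ± 36.8 TPM (SD, n = 2), with libraries overlapping those of Syce2 at 592 ± 11.4 TPM. Sycp1 and Tex12 came next, and the 4 lowest were Hormad1, Sycp2, Syce3 and Hormad2, with Syce3 and Hormad2 overlapping. In control growing oocytes the order was headed by Syce2 at 645 ± 35.6 TPM, with Sycp3 second at 353 ± 12.6 TPM. There Sycp1 and Syce1 overlapped, as did Tex12 and Sycp2, and Hormad1 and Syce3 at the bottom. In PRC1 cKO growing oocytes Sycp3 headed the order again at 1499 ± 186 TPM, with Syce2 second at 851 ± 42.8 TPM, while in PRC1 control Syce2 headed it at 873 ± 54.3 TPM.

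**Figure D2:**
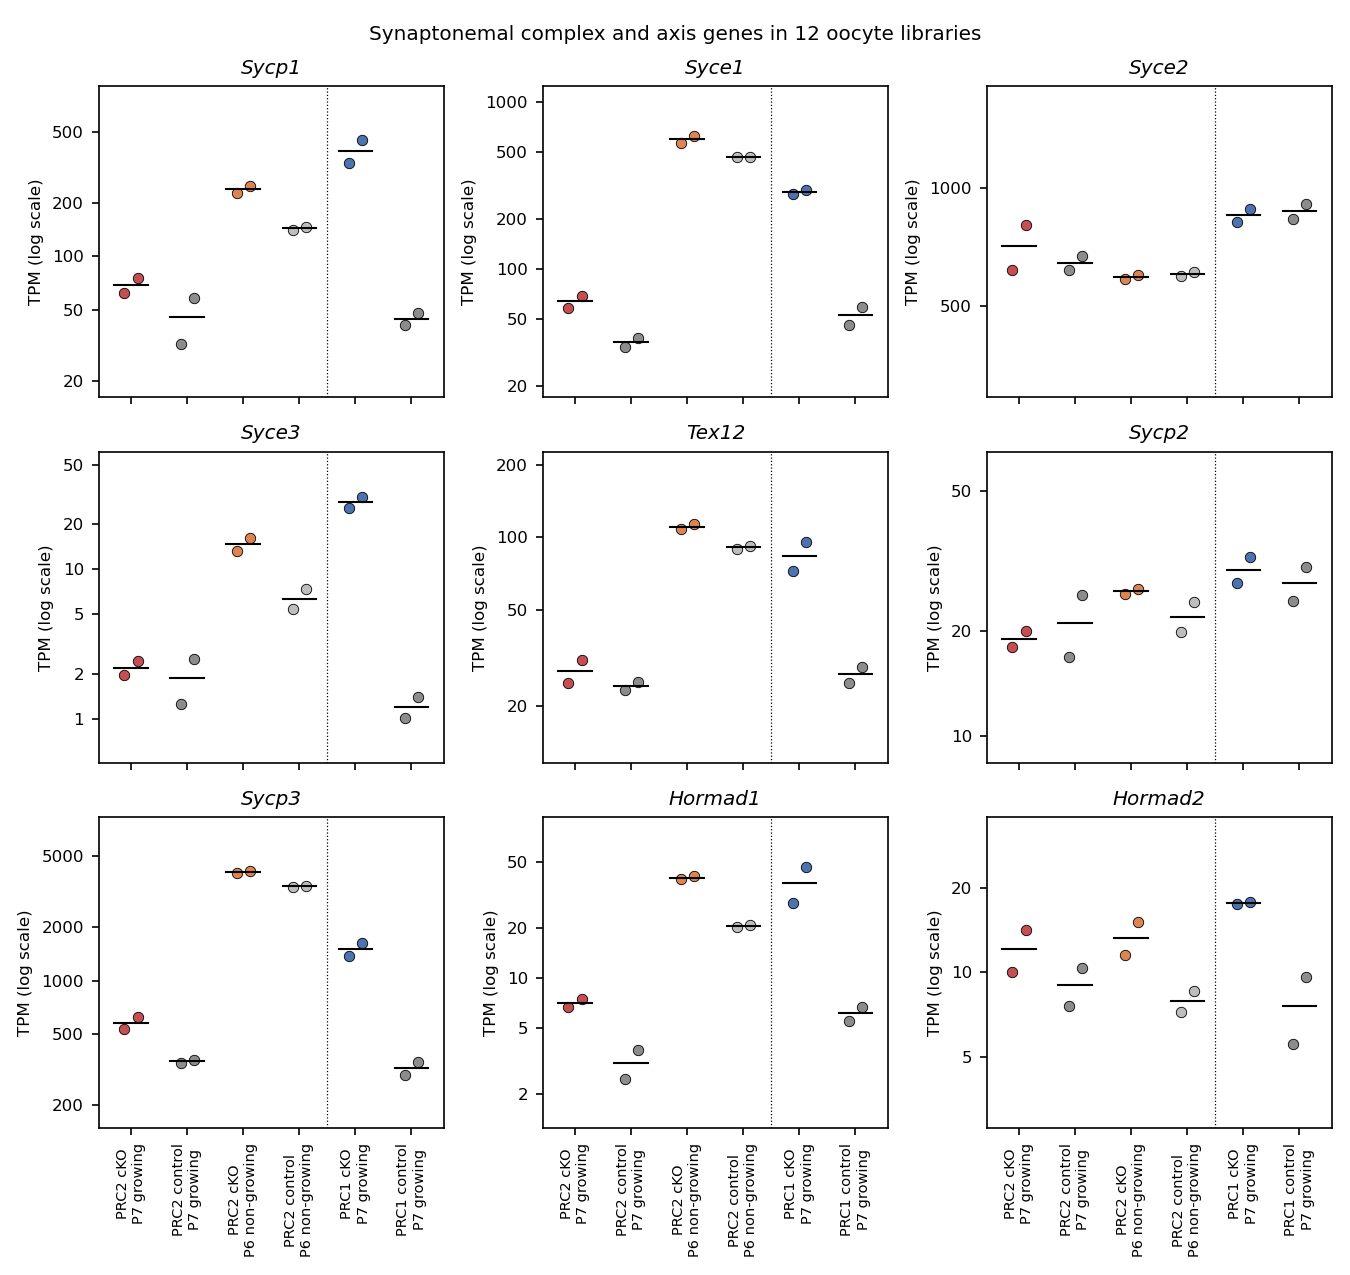
TPM of each of the 9 members in the 12 libraries, on a log axis, with 2 points per group and a bar at their mean. The dotted line parts the PRC2 table on the left from the separately deposited PRC1 table on the right. In 6 panels the growing PRC2 groups lie below the non-growing ones and PRC1 cKO lies above its control, while Syce2 and Sycp2 span a narrow range.

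Growth separated the members into 6 that fell and 3 that did not. Sycp1, Syce1, Syce3, Tex12, Sycp3 and Hormad1 were called lower in growing than in non-growing oocytes in PRC2 cKO and in control. The other 3, Syce2, Sycp2 and Hormad2, gave no call in either genotype. The comparison within each genotype tested 14153 genes with limma on log2(TPM + 1), with Benjamini-Hochberg adjustment and a threshold of 0.05. Genes called lower made up 46.0% of all tested genes in PRC2 cKO and 54.0% in control, so a fall by itself was common. The members' median log2 fold change was -1.96 in PRC2 cKO, against -0.45 over all genes. In control it was -1.70, against -0.67 over all genes. In bulk libraries, fewer oocytes that keep such RNA and less of it in each oocyte cannot be told apart.

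Syce1, which joins the central element to the transverse filaments, fell furthest as deposited, while quantile normalization put Sycp3 lower (-3.30 and -2.60 for Sycp3 and Syce1 in PRC2 cKO, -3.85 and -3.06 in control). Syce1 had 69.1 and 58.7 TPM in PRC2 cKO growing oocytes, against 570.0 and 622 TPM in non-growing oocytes of that genotype (log2 fold change -3.20, SE 0.11, limma adjusted p = 3.45e-06). In control it had 38.7 and 34.1 TPM in growing oocytes, against 466 and 468 TPM in non-growing oocytes (-3.65, SE 0.11, limma adjusted p = 2.5e-06). The 4 growing libraries were all about an order of magnitude below the non-growing ones, and the control change ranked 63 from the lowest of 14153 genes. Sycp3, the main structural protein of the lateral element, had 623 and 534 TPM in PRC2 cKO growing oocytes, against 4127 and 4024 TPM in non-growing oocytes of that genotype (-2.82, SE 0.08, limma adjusted p = 2.01e-06). In control it had 362 and 344 TPM in growing oocytes, against 3392 and 3364 TPM in non-growing oocytes (-3.26, SE 0.08, limma adjusted p = 1.78e-06). Its control change ranked 114 from the lowest, and it accounted for most of the drop in the members' sum, which was 1094 to 1183 TPM in control growing libraries and 4733 to 4745 TPM in control non-growing ones.

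Hormad1 was low in growing oocytes and differed from non-growing oocytes by a similar factor in each genotype. It had 6.66 and 7.46 TPM in PRC2 cKO growing oocytes, against 41.1 and 39.8 TPM in non-growing oocytes (-2.36, SE 0.17, limma adjusted p = 3.44e-05). In control it had 2.48 and 3.67 TPM in growing oocytes, against 20.9 and 20.3 TPM in non-growing oocytes (-2.42, SE 0.17, limma adjusted p = 3.32e-05). Tex12, the partner of Syce2 in the central element fibre, had 30.9 and 24.9 TPM in PRC2 cKO growing oocytes, against 113 and 108 TPM in non-growing oocytes (-1.96, SE 0.12, limma adjusted p = 2.05e-05). Its control values were 23.2 and 25.1 TPM in growing oocytes, against 89.2 and 92.3 TPM in non-growing oocytes (-1.87, SE 0.12, limma adjusted p = 2.61e-05). Each Tex12 and Hormad1 growing library was below every non-growing one.

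Sycp1 had 76.0 and 62.8 TPM in PRC2 cKO growing oocytes, against 247 and 228 TPM in non-growing oocytes (-1.77, SE 0.25, limma adjusted p = 0.000775). In control it had 58.6 and 32.5 TPM in growing oocytes, against 141 and 147 TPM in non-growing oocytes (-1.70, SE 0.25, limma adjusted p = 0.000882), with the control growing pair the least alike of these groups. Syce3, a small central element protein needed to start synapsis, had 1.96 and 2.45 TPM in PRC2 cKO growing oocytes, against 16.3 and 13.3 TPM in non-growing oocytes (-2.30, SE 0.26, limma adjusted p = 0.000261). In control it had 1.27 and 2.51 TPM in growing oocytes, against 7.34 and 5.41 TPM in non-growing oocytes (-1.37, SE 0.26, limma adjusted p = 0.00292). At these low levels the log2(TPM + 1) scale understates the change, and the mean TPM was 6.72-fold lower in growing than in non-growing PRC2 cKO oocytes and 3.37-fold lower in control.

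Of the 3 members that gave no growth call, Syce2, which builds the central element fibre with Tex12, had 619 and 804 TPM in PRC2 cKO growing oocytes, against 584 and 601 TPM in non-growing oocytes (0.25, SE 0.12, limma adjusted p = 0.111). In control it had 669.8 and 619 TPM in growing oocytes, against 596 and 609.6 TPM in non-growing oocytes (0.10, SE 0.12, limma adjusted p = 0.505). Growing libraries of Syce2 were all above the non-growing ones, and its change passed in both genotypes under each of 3 other scalings (0.59 to 0.91 in log2, limma adjusted p = 0.000325 to 0.00337). Sycp2, the partner of Sycp3 in the lateral element, averaged 19.0 ± 1.45 TPM in PRC2 cKO growing and 25.9 ± 0.672 TPM in non-growing oocytes (SD, n = 2; -0.43, SE 0.20, limma adjusted p = 0.102). The libraries did not overlap, and the fall passed without control growing replicate 1 or 2 (limma adjusted p = 0.0407 and 0.0418), though trimmed-mean and protein-coding scaling turned it positive. In control Sycp2 had 16.8 and 25.3 TPM in growing oocytes, against 24.1 and 19.8 TPM in non-growing oocytes (-0.08, SE 0.20, limma adjusted p = 0.753), and its change turned positive under all 3 scalings. Hormad2 lay between 7.22 and 15.1 TPM, with overlapping stages in both genotypes (-0.13 in PRC2 cKO and 0.16 in control, limma adjusted p = 0.642 and 0.573). Under quantile normalization its control change was 0.67 and under trimmed-mean scaling 0.89, and both passed (limma adjusted p = 0.0357 and 0.0125). The fall of the other 6 passed in both genotypes under every alternative run. Over all genes, 2844 were higher and 6516 lower with growth in PRC2 cKO, and 2346 higher and 7640 lower in control, while trimmed-mean scaling gave 4414 higher and 4174 lower in PRC2 cKO and 4163 higher and 3883 lower in control.

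**Figure D3:**
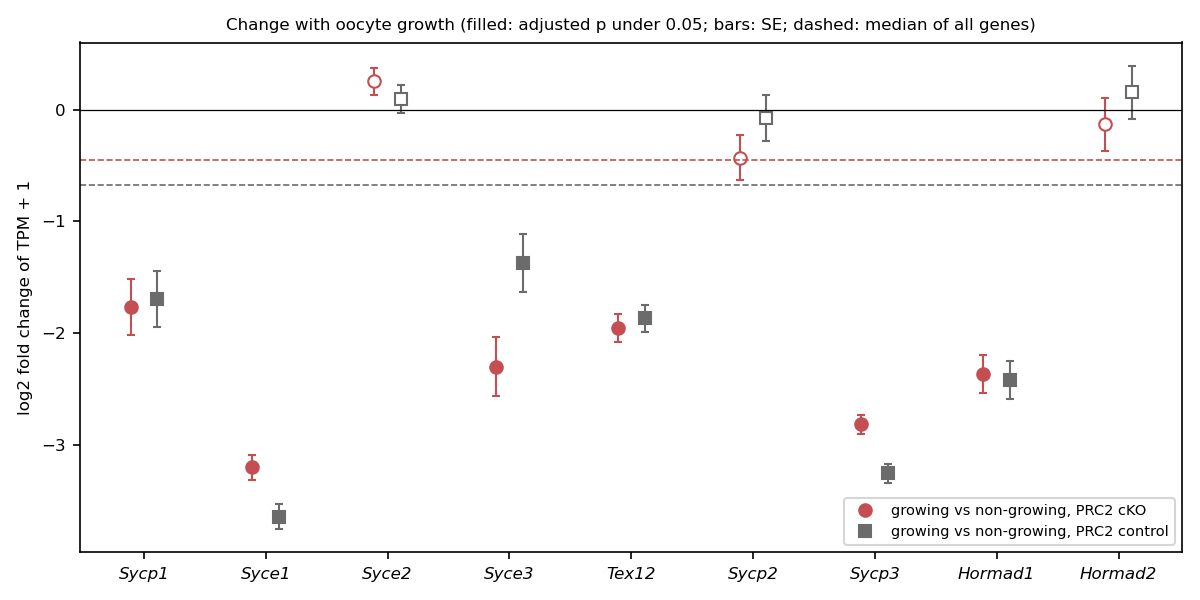
Log2 fold change of TPM + 1, growing over non-growing oocytes, for each member in PRC2 cKO (circles) and control (squares), with SE bars and n = 2 libraries per group. Filled symbols passed a limma adjusted p of 0.05 and dashed lines are the medians of all genes, -0.45 in PRC2 cKO and -0.67 in control. On the deposited scale Syce1 and Sycp3 lie lowest, and the open symbols are Syce2, Sycp2 and Hormad2.

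In PRC1 cKO growing oocytes, 7 of the 9 members were higher than in PRC1 control, and none was lower. They were the 6 that fell with growth in the PRC2 table and Hormad2. Genes called higher made up 41.3% of the 14941 tested, 6176 genes against 964 called lower, so that rises were common in this comparison. The members' median log2 fold change was 2.21, against 0.55 over all genes. Under quantile normalization the split of all calls was 2722 higher and 2636 lower, and trimmed-mean scaling gave 4069 higher and 2196 lower.

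Syce3 had 30.6 and 25.6 TPM in PRC1 cKO, against 1.02 and 1.40 TPM in PRC1 control, a 23.2-fold higher mean (log2 fold change 3.72, SE 0.23, limma adjusted p = 0.00208). It ranked 125 from the highest of 14941 genes, though with a pseudocount of 5 its log2 fold change was 2.41. Sycp1 had 450.0 and 333 TPM in PRC1 cKO, against 41.3 and 48.0 TPM in PRC1 control (3.09, SE 0.19, limma adjusted p = 0.00208), and ranked 270 from the highest. The weaker Sycp1 library of the cKO was several times the stronger control library.

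Syce1 had 282 and 298 TPM in PRC1 cKO, against 46.2 and 59.5 TPM in PRC1 control (2.45, SE 0.17, limma adjusted p = 0.00212). Hormad1 had 46.9 and 28.6 TPM in PRC1 cKO, against 5.53 and 6.72 TPM in PRC1 control (2.41, SE 0.29, limma adjusted p = 0.00414). Sycp3 had 1630.2 and 1368 TPM in PRC1 cKO, against 297 and 350.2 TPM in PRC1 control (2.21, SE 0.16, limma adjusted p = 0.00212). For these 3 genes the means were 5.49-fold, 6.16-fold and 4.63-fold higher in PRC1 cKO.

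Tex12 had 95.3 and 72.1 TPM in PRC1 cKO, against 24.8 and 29.1 TPM in PRC1 control (1.59, SE 0.20, limma adjusted p = 0.00444). Hormad2 had 17.5 and 17.9 TPM in PRC1 cKO, against 5.55 and 9.62 TPM in PRC1 control (1.16, SE 0.29, limma adjusted p = 0.0259). Hormad2 thus rose in PRC1 cKO although it gave no growth call. Its call did not hold without PRC1 control replicate 1 (limma adjusted p = 0.136), without the filter (0.0678), with quantile normalization (0.131) or with trimmed-mean scaling (0.0704), while the other 6 passed under every alternative run.

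Syce2 and Sycp2 gave no call with PRC1 loss. Syce2 had 882 and 821 TPM in PRC1 cKO, against 834 and 911 TPM in PRC1 control (-0.04, SE 0.13, limma adjusted p = 0.836), though trimmed-mean scaling gave a lower value that passed (-0.50, limma adjusted p = 0.0455). Sycp2 had 32.3 and 27.2 TPM in PRC1 cKO, against 30.4 and 24.3 TPM in PRC1 control (0.12, SE 0.20, limma adjusted p = 0.635). The groups overlapped for both genes. They are the 2 members with no call in any of the 6 comparisons, as deposited.

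The members' summed TPM was 2992 to 3467 in PRC1 cKO, against 1286 to 1440 in PRC1 control. Beside these rises, PRC1 cKO libraries listed 14940 to 15582 gene models at 1 TPM or more, against 12313 to 12592 in PRC1 control. The granulosa cell marker Inha was at 17.2 and 10.9 TPM in PRC1 cKO, against 0.59 and 2.68 TPM in PRC1 control, and Kitl at 7.78 and 4.95 TPM, against 1.22 and 0.86 TPM. Of the 9 granulosa markers, 4 were under 1 TPM in both PRC1 cKO libraries. Foxl2 was at 0.19 and 0.14 TPM in PRC1 cKO and 0 in both controls, and Amh at 0.24 and 0.04 TPM, against 0 and 0.05 TPM. Cyp19a1 was at 2.34 and 2.05 TPM in PRC1 cKO, against 0.65 and 0.9 TPM in PRC1 control. Amhr2 was at 2.76 and 0.57 TPM, against 0.08 and 0.52 TPM. Fst and Wnt4 were also higher in both PRC1 cKO libraries, at under 1 TPM, while Fshr and Amh overlapped between the groups. The 7 stromal markers summed to 1.66 to 4.41 TPM in PRC1 cKO, against 0.14 to 0.55 TPM in PRC1 control, with 5 of 7 under 1 TPM in both PRC1 cKO libraries. The 4 red cell markers summed to 2.15 to 2.3 TPM, against 0.25 to 0.38 TPM. The part of other cells in the members' rises was not tested.

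Oocyte markers also set PRC1 cKO apart from its control. Bmp15, a growth factor secreted by growing oocytes, was at 22.1 and 74.2 TPM in PRC1 cKO, against 448 and 354 TPM in PRC1 control. Its partner Gdf9 was at 1572 and 2205 TPM in PRC1 cKO, against 4864 and 5225 TPM in PRC1 control. Sohlh1, a transcription factor of early oocytes, was at 986 and 598 TPM in PRC1 cKO, against 89.97 and 157 TPM in PRC1 control. None of the 3 pairs of groups overlapped, and these genes were singled out after their values were seen. Among the other oocyte markers, Npm2 was at 1113 and 1134 TPM in PRC1 cKO, against 1405 and 1469 TPM in PRC1 control. Zp1 was at 1435 and 1407 TPM in PRC1 cKO, against 1659 and 1911 TPM in PRC1 control. Zp3 was also lower in PRC1 cKO, Ddx4, Dazl, Nobox and Figla were higher, and Zp2 and Kit overlapped between the groups. The part of oocyte stage in the members' rises was not tested.

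In PRC2 cKO growing oocytes, 1 member passed, Sycp3, at 623 and 534 TPM, against 362 and 344 TPM in control growing oocytes (log2 fold change 0.71, SE 0.08, limma adjusted p = 0.0489). Genes called higher made up 0.12% of those tested. Sycp3 was at the edge of the threshold, and its call held under 3 of 18 alternatives (limma adjusted p = 0.0369 to 0.574). Leaving out any library but PRC2 cKO growing replicate 2 ended it. Both cKO libraries were above both control libraries for 4 of the 9 members, Sycp1, Syce1, Sycp3 and Hormad1, against 23.5% of all tested genes. Hormad1 had a mean of 7.06 ± 0.566 TPM in PRC2 cKO and 3.08 ± 0.841 TPM in control growing oocytes (SD, n = 2; 1.00, SE 0.17, limma adjusted p = 0.139). Syce1 had 63.9 ± 7.38 TPM in PRC2 cKO and 36.4 ± 3.22 TPM in control (SD, n = 2; 0.79, SE 0.11, limma adjusted p = 0.0922). The members' median was 0.39, against 0.08 over all genes.

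In PRC2 cKO non-growing oocytes no member passed, where 0.113% of genes were called higher and 6 members had an unadjusted p under 0.05 by limma, as had 16.4% of all tested genes. Both cKO libraries were above both control libraries for 8 of the 9 members, all but Syce2, against 20.3% of all tested genes. The members' median was 0.35, against -0.09 over all genes. Hormad1 had 41.1 and 39.8 TPM in PRC2 cKO, against 20.9 and 20.3 TPM in control (0.94, SE 0.17, limma adjusted p = 0.0901, and 0.0403 with a pseudocount of 5). Syce3 had 16.3 and 13.3 TPM in PRC2 cKO, against 7.34 and 5.41 TPM in control (1.11, SE 0.26, limma adjusted p = 0.152). The other 6 with no overlap had log2 fold changes from 0.23 to 0.72. These members share 2 libraries per group, so their like direction is not a count of independent results.

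The difference between the PRC2 effects at the 2 stages was tested directly, and no member passed by limma, where 0.0989% of genes did, while 3 members had an unadjusted p under 0.05, as had 15.8% of all tested genes. The largest differences were -0.93 for Syce3 (SE 0.37, limma adjusted p = 0.31) and 0.44 for Syce1 and Sycp3 (SE 0.16 and 0.12, limma adjusted p = 0.305 for each). Whether the PRC2 and PRC1 effects differ was not tested, because every test stayed within a table.

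**Figure D4:**
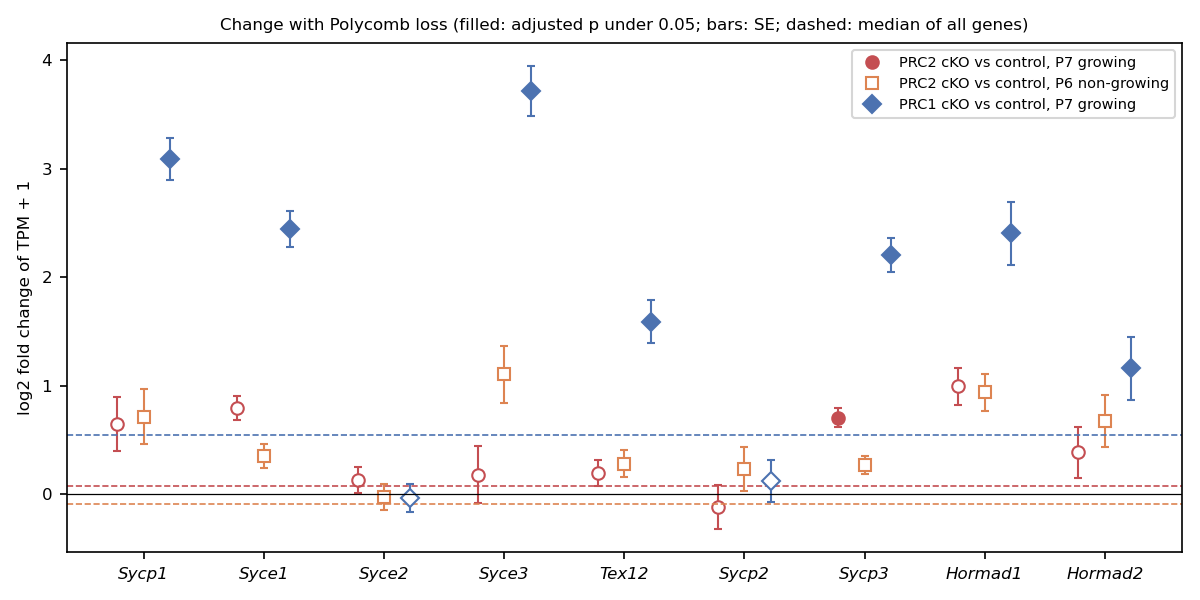
Log2 fold change of TPM + 1, cKO over control, for each member in PRC2 growing oocytes (circles), PRC2 non-growing oocytes (squares) and PRC1 growing oocytes (diamonds), with SE bars and n = 2 libraries per group. Filled symbols passed a limma adjusted p of 0.05 and dashed lines are the medians of all genes, 0.08, -0.09 and 0.55. Syce3 in PRC1 cKO is highest at 3.72 (with a pseudocount of 5 it is 2.41, below the 2.99 of Sycp1), and the only filled PRC2 symbol is Sycp3.

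Other genes of meiotic prophase were read from 5 lists of 47 genes in all, of which 43 were tested in each table. By limma none passed in PRC2 cKO growing or non-growing oocytes or in the test of the stage difference, where 11, 10 and 9 had an unadjusted p under 0.05, against 9.94%, 16.4% and 15.8% of all tested genes. With growth, 5 were higher and 25 lower in PRC2 cKO, and 2 were higher and 27 lower in control, while trimmed-mean scaling gave 12 higher and 19 lower in PRC2 cKO and 9 higher and 19 lower in control. Over all genes, 46.0% were lower in PRC2 cKO and 54.0% in control. The 5 higher in PRC2 cKO became 8 when PRC2 cKO growing replicate 1 was left out and 3 when replicate 1 of the non-growing PRC2 cKO was. In PRC1 cKO, 26 were higher and none lower, against 41.3% of all genes called higher, with 14 higher and 4 lower under quantile normalization and 16 higher and 2 lower of 37 tested without PRC1 cKO replicate 1. The median log2 fold change of the 43 genes was 1.04 in PRC1 cKO, against 0.55 over all genes.

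Of the axis partners and meiotic cohesins, which lay the axis on which the lateral element forms, 10 of 11 were tested, 6 fell with growth in PRC2 cKO, 6 fell in control and 8 rose in PRC1 cKO. Their median log2 fold change was -0.73 with growth in PRC2 cKO, -0.80 in control and 1.09 in PRC1 cKO. The medians of all genes were -0.45, -0.67 and 0.55. Of all tested genes, 46.0% in PRC2 cKO and 54.0% in control were called lower with growth, and 41.3% higher in PRC1 cKO. The 6 of 10 in control are near the share of all genes. Smc1b, the meiotic cohesin ring subunit, had 91.7 and 88.4 TPM in PRC2 cKO growing oocytes, against 405 and 380.2 TPM in non-growing oocytes of that genotype (limma adjusted p = 9.73e-05). It had 248 ± 12.9 TPM in PRC1 cKO and 87.9 ± 3.95 TPM in PRC1 control (SD, n = 2; limma adjusted p = 0.00246). Rec114, which works with Mei4 and Iho1 in making the double-strand breaks that start recombination, had 90.7 ± 0.17 TPM in PRC1 cKO and 24.0 ± 1.82 TPM in PRC1 control (SD, n = 2; limma adjusted p = 0.00225). Mei1 and Ankrd31, other genes needed for these breaks, fell with growth in both genotypes and rose in PRC1 cKO.

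Of 8 synapsis and telomere attachment genes, 3 rose and 3 fell with growth in PRC2 cKO, 2 fell in control and 3 rose in PRC1 cKO. The 3 of 8 in PRC1 cKO are near the 41.3% of all genes, and the list's median there was 0.18, against 0.55 over all genes. With growth the list's median was -0.05 in PRC2 cKO and 0.05 in control, against -0.45 and -0.67 over all genes. The shares that fell with growth are below the 46.0% of all genes called lower in PRC2 cKO and the 54.0% in control. Six6os1 (listed as 4930447C04Rik), another central element protein, had 5.10 ± 0.12 TPM in PRC1 cKO and 0.25 ± 0.0141 TPM in PRC1 control (SD, n = 2; limma adjusted p = 0.00225). Terb2 and Majin, which tie telomeres to the nuclear envelope, also rose there. With growth Terb2 fell in PRC2 cKO, from 27.18 ± 4.41 to 3.785 ± 0.318 TPM (SD, n = 2; limma adjusted p = 2.05e-05). In control Terb2 fell from 18.94 ± 0.834 to 2.74 ± 0.156 TPM (limma adjusted p = 2.7e-05). Six6os1 fell in control from 10.69 ± 0.552 to 0.92 ± 0.17 TPM (limma adjusted p = 2.97e-05). Terb1, of the same complex as Terb2, went against the members with growth. It had 57.2 ± 1.43 TPM in PRC2 cKO growing and 20.6 ± 0.361 TPM in non-growing oocytes (SD, n = 2; limma adjusted p = 4.58e-05), while its control change did not pass (limma adjusted p = 0.0526).

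Of 12 crossover genes, 1 rose and 9 fell with growth in PRC2 cKO, 1 rose and 10 fell in control, and 9 rose in PRC1 cKO. Their median was -1.38 with growth in PRC2 cKO, -1.51 in control and 1.28 in PRC1 cKO. The medians of all genes were -0.45, -0.67 and 0.55. Of all tested genes, 46.0% in PRC2 cKO and 54.0% in control were called lower with growth, and 41.3% higher in PRC1 cKO. Tex11, a crossover protein that meets the axis through Sycp2, had 82.4 ± 12.3 TPM in PRC1 cKO and 11.7 ± 1.93 TPM in PRC1 control (SD, n = 2; limma adjusted p = 0.00219). Ccnb1ip1 and Prr19, also crossover factors, rose there too, and Tex11 and Rnf212b were among those that fell with growth. Msh4, the mismatch-repair relative that stabilizes crossover intermediates, was the 1 that rose, with 199 ± 5.56 TPM in PRC2 cKO growing and 24.9 ± 0.919 TPM in non-growing oocytes, and 176 ± 18.7 TPM in control growing and 34.4 ± 0.983 TPM in control non-growing oocytes (SD, n = 2; limma adjusted p = 3.47e-06 and 8.04e-06).

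Of 10 tested strand exchange genes, 1 rose and 7 fell with growth in PRC2 cKO, 1 rose and 8 fell in control, and 5 rose in PRC1 cKO. The 5 of 10 in PRC1 cKO are near the 41.3% of all genes, and the list's median there was 0.50, against 0.55 over all genes. With growth it was -0.99 in PRC2 cKO and -0.997 in control, against -0.45 and -0.67 over all genes. Of all tested genes, 46.0% in PRC2 cKO and 54.0% in control were called lower with growth. Spata22, a partner of single-stranded DNA in recombination, had 34.4 ± 1.9 TPM in PRC1 cKO and 0.82 ± 0.0566 TPM in PRC1 control (SD, n = 2; limma adjusted p = 0.00208). Dmc1, the meiotic strand exchange protein, had 6.17 ± 0.651 TPM in PRC1 cKO and 0.36 ± 0.212 TPM in PRC1 control (SD, n = 2; limma adjusted p = 0.00255), and Spo11, which cuts the DNA, rose too. Of the meiotic entry genes, 3 of 5 were tested. Meiosin (listed as Gm4969) fell with growth in control, and Dazl was the 1 that rose in PRC1 cKO (limma adjusted p = 0.0479).

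**Figure D5:**
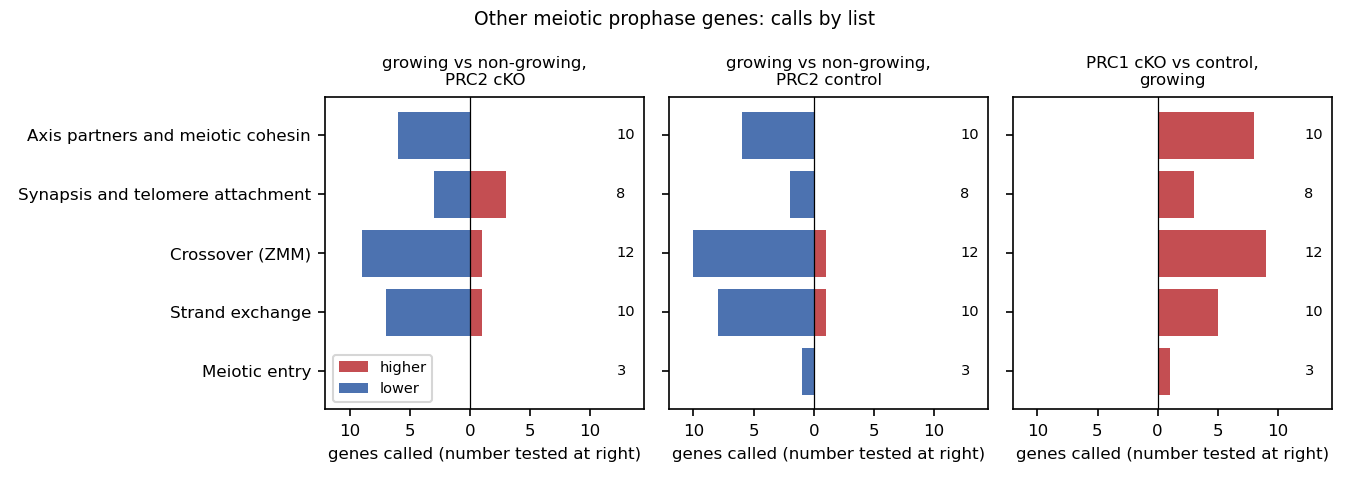
Number of genes called higher (right of 0) and lower (left of 0) by limma in each of the 5 meiotic lists, for growing over non-growing oocytes in PRC2 cKO and in control and for PRC1 cKO over PRC1 control, with the number tested at the right edge. Most growth bars point to lower, 25 genes in PRC2 cKO and 27 in control, and the 26 calls in PRC1 cKO all point to higher. Of all tested genes, 46.0% in PRC2 cKO and 54.0% in control were called lower with growth, and 41.3% higher in PRC1 cKO.

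Among 7476 genes with a mean of at least 5 TPM, the profile most like the members' mean over the 8 PRC2 libraries was that of Hltf (Pearson r = 0.988), followed by Kidins220, Kank4os, Xlr3b and Teddm2 (r = 0.979 or above). Those most like Sycp3 were Drc3 (r = 0.999), Itgb3bp, Tph2, Reep5 and Snx5 (r = 0.998 to 0.999). The 8 libraries fall into 2 stages, so these correlations mostly describe one step between stages and carry no p. Xlr3b, which belongs to an X-linked family with close copies, had 56.7 TPM in PRC2 cKO growing oocytes, 29.8 TPM in control growing oocytes, 207 TPM in PRC2 cKO non-growing oocytes and 101 TPM in control non-growing oocytes, as means of 2 libraries. In the PRC1 table, Tph2 had a mean of 5.21 TPM in PRC1 cKO and 1.24 TPM in PRC1 control.

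Some members overlap other genes on the opposite strand, and the sources used here do not state whether reads were counted by strand. The whole of Tex12 lies within Il18, which had 11.3 and 10.9 TPM in PRC1 cKO, against 0.66 and 1.42 TPM in PRC1 control, and in PRC2 cKO 1.14 and 0.96 TPM in growing, against 14.6 and 11.8 TPM in non-growing oocytes. Il18 thus differed in the same directions as Tex12, at lower levels, and without strand the reads of the pair cannot be told apart. Chpt1 overlaps all of Sycp3, with 420 transcript bases identical, and differed in the same directions at far lower levels. It had 0.38 and 0.46 TPM in control growing oocytes, against 4.26 and 3.56 TPM in control non-growing oocytes, and 2.44 and 2.52 TPM in PRC1 cKO, against 0.90 and 1.20 TPM in PRC1 control. Gcdh, which shares 1829 bases with Syce2, lay between 11.8 and 21.7 TPM. The Hormad1 copy Gm15529, 97.7% identical over 922 bases, was at 0.06 TPM or less in every library.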

How the data were processed

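The data are 12 oocyte RNA-seq libraries, grouped and numbered by their sample titles. Per the labels' protocols, RNA was taken with the RNeasy Plus Micro kit and libraries were made with a NEBNext low-input kit and read in pairs of 150 bases on an Illumina HiSeq instrument. The authors deposited TPM values in 2 tables, 8 PRC2 libraries and 4 PRC1 libraries. RSEM 1.3.3, Subread 2.0.3, SAMtools, HISAT2 and Trim Galore 0.6.10, with the build GRCm38, are named per the submitters' processing notes. The sources used here do not state which of them made the TPM table, whether strand was considered or how reads with several matches were treated. TPM keeps no depth, so sequencing depth is unknown and no count test or counting interval was made.

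Members were matched by symbol. Tests were run on log2(TPM + 1) for genes reaching 1 TPM in 2 or more libraries of a table, with limma 3.58.1 under R 4.3.3 (a linear model over every group of the table, then eBayes with trend). They were two-sided, with Benjamini-Hochberg adjustment over all tested genes of a comparison and a threshold of 0.05, and stayed within a table. The genes named by rule were the 9 members, Eed, Rnf2 and Ring1, and the 5 genes most like each of 2 profiles. To these the rule added the 3 genes of smallest p among those that passed in each list and comparison. Cell markers and genes overlapping or resembling members were named outside this rule. Of the markers, Bmp15, Gdf9 and Sohlh1 were singled out after their values were seen. Members, lists, markers, overlapping genes and motifs were chosen with earlier results of these data known. Gene positions came from GENCODE and promoters from RefSeq, and copies were sought with blastn 2.17.0. Alternatives were pseudocounts of 0.1 and 5, no filter and a filter of 5 TPM, quantile, trimmed-mean and protein-coding scaling, eBayes without trend, fitting the compared groups alone, a replicate block and each library left out.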

Additional observations from a re-analysis of the deposited data

How the results depend on the processing

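The falls with growth of 6 members in PRC2 cKO and in control, and the rises of 6 members in PRC1 cKO, passed under every alternative run. The call of Sycp3 in PRC2 cKO growing oocytes was lost, leaving 0 members, with a pseudocount of 5, no filter, quantile normalization, trimmed-mean scaling, protein-coding scaling, eBayes without trend and fitting the compared groups alone, and the count was 0 to 1 with each library left out. The cause was not tested. In PRC2 cKO non-growing oocytes 1 member, Hormad1, passed with a pseudocount of 5. All-gene counts ranged in non-growing PRC2 cKO from 6 to 91 (44 as reported), in growing PRC2 cKO from 1 to 50 (24), for the stage difference from 2 to 922 (14) and in PRC1 cKO from 3747 to 9501 (7140).

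Scaling moved the median of all genes. With growth in PRC2 cKO it was -0.45 as deposited, -0.22 with quantile, 0.01 with trimmed-mean and -0.03 with protein-coding scaling, in control -0.67, -0.22, -0.03 and -0.27, and in PRC1 cKO 0.55, -0.04, 0.16 and 0.38. The members' median with growth was then -1.50, -1.38 and -1.48 in PRC2 cKO and -1.09, -0.89 and -1.215 in control, and in PRC1 cKO 1.89, 1.74 and 1.97. With a pseudocount of 5 it was -1.71 with growth in PRC2 cKO and 1.91 in PRC1 cKO. With trimmed-mean scaling it was 0.49 in PRC2 cKO non-growing oocytes and -0.30 for the stage difference. With each library left out it was 0.25 to 0.59 in PRC2 cKO growing oocytes and -2.11 to -1.81 with growth in PRC2 cKO.

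Members without a call could change sign. With quantile, trimmed-mean and protein-coding scaling, Sycp2 was 0.51, 0.71 and 0.40 with growth in control and -0.28, -0.33 and -0.11 in PRC1 cKO, and Hormad2 0.15, 0.41 and 0.33 with growth in PRC2 cKO. The trimmed-mean value of Sycp2 in control passed (limma adjusted p = 0.0218). Sycp2 was 0.13 and 0.047 with growth in PRC2 cKO under trimmed-mean and protein-coding scaling. Under trimmed-mean scaling Syce2 was 0.12 in PRC2 cKO non-growing oocytes and -0.077 for the stage difference. The stage difference of Hormad1 was -0.25 with a pseudocount of 5, -0.17 with quantile and -0.11 with trimmed-mean scaling. With each library left out, values in PRC2 cKO growing oocytes were -0.057 to 0.32 for Syce2, -0.14 to 0.49 for Syce3 and -0.40 to 0.16 for Sycp2. Stage differences were -0.48 to 0.35 for Sycp1, -0.032 to 0.34 for Syce2, -0.24 to 0.065 for Tex12 and -0.16 to 0.27 for Hormad1. With growth they were -0.36 to 0.21 for Sycp2 and -0.049 to 0.36 for Hormad2 in control, and -0.36 to 0.094 for Hormad2 in PRC2 cKO. In PRC1 cKO they were -0.10 to 0.028 for Syce2 and -0.034 to 0.28 for Sycp2.

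The labels do not say whether same-numbered PRC2 libraries share anything beyond the number. Correlations of their deviations were -0.03 to 0.26, highest between the growing and non-growing PRC2 cKO. A replicate block left 0 members called in PRC2 cKO growing oocytes and changed no other count of members, with 20 genes called in non-growing and 16 in growing PRC2 cKO, 5 for the stage difference and 5094 in PRC1 cKO. In PRC1 the correlation was -0.27, and a block with crossed numbers, chosen after seeing the data, gave 9501 calls, 7 of them members. With 2 libraries per group and TPM of unknown depth, small changes could not be resolved.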
